A study of Mus musculus with 6 samples.

Results

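The 9 homeostatic microglia markers P2ry12, P2ry13, Gpr34, Cx3cr1, Csf1r, Tmem119, Siglech, Selplg and Sall1 were examined in the prefrontal cortex of aged mice after anesthesia and surgery. They were chosen by name, all 9 were found among the 21006 genes of the files, and all 9 were detected in each of the 6 samples. The mice were wild type C57BL/6 males, 18 months old by their age label (the sample titles read 17M). The postoperative neurocognitive disorder (PND) group was exposed to 1.5% isoflurane for 30 min and then underwent exploratory laparotomy (surgical opening and inspection of the abdomen) for 30 min under isoflurane. Lidocaine cream and povidone iodine were put on the wound afterwards. The control (CON) group had no anesthesia and no operation. Each group of 13 mice gave 3 animals for sequencing (n = 3), with 1 sample per animal. No sham group was included, so the parts of anesthesia, surgery and wound care cannot be told apart. By the methods of the study, mice were also tested for fear memory and in the Barnes maze (a spatial memory test), and were killed under isoflurane and perfused with saline, so these steps do not separate the groups. The Barnes maze ended on postoperative day 6 and tissue was taken 30 min after it, so earlier times after surgery were not sampled.

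Microglia are the resident macrophages of the brain. In the healthy brain they survey the tissue with motile processes, and they carry a set of surface receptors that sense nucleotides, chemokines, lipids and growth factors from neighbouring neurons and astrocytes. This set marks the resting, or homeostatic, state and is known to be lowered when microglia become activated. P2ry12 and P2ry13 encode receptors for ADP, of which P2RY12 steers the processes towards injury. Gpr34 encodes a receptor for lysophosphatidylserine, Cx3cr1 the receptor for the neuronal chemokine fractalkine, and Csf1r the receptor for CSF1 and IL-34, on which microglial survival depends. Tmem119 encodes a membrane protein, Siglech a sialic acid-binding lectin, Selplg the ligand of P-selectin, and Sall1 a transcription factor of microglial identity.

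P2ry12 was the marker with the smallest unadjusted p, though no marker passed the correction over all genes. It lies on chromosome 3 (59216272 to 59262871, minus strand, GRCm38), and P2ry13 is its neighbour (59207892 to 59210882, minus strand), with a gap of 5.39 kb between them. Both sit inside Med12l, a gene of 313 kb on the opposite strand that encodes a subunit of the Mediator complex. The promoter windows of this neighbouring pair are shown because P2ry12 had the smallest unadjusted p of the markers and P2ry13 lies next to it. They are RefSeq sequences of GRCm38.p6, read along the gene from 250 bases before to 50 bases after the RefSeq start, chr3:59262936-59263235 for P2ry12 and chr3:59210833-59211132 for P2ry13, both minus strand. For P2ry12 the RefSeq start lies upstream of the GENCODE start that ends the position given above, so this window lies wholly outside that position. Capitals mark matches to the motifs searched.
P2ry12: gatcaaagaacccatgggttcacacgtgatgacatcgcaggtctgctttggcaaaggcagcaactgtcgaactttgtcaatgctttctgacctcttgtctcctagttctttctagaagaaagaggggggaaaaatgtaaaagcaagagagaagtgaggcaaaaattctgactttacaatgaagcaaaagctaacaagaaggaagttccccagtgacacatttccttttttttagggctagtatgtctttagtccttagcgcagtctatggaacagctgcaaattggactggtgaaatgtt
P2ry13: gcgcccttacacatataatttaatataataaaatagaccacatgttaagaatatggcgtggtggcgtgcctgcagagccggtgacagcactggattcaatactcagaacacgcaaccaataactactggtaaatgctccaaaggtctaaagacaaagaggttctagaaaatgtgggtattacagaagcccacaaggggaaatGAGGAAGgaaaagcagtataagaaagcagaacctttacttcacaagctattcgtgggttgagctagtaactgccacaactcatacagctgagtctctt

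The motifs were searched on both strands. They were GAGGAAG (a core of sites for PU.1, the transcription factor encoded by Spi1), the PU.1-IRF composite (GGAA and GAAA with 2 bases between) and TGANTCA (AP-1). The first 2 share the letters GGAA, so a position can match both. Of the 9 markers, 5 had promoter windows in the RefSeq table, 7 windows in all. GAGGAAG was in 1 of these 7 windows, that of P2ry13, where the match began 48 bases before the start (position -48). It was in 13.6% of all 32851 promoter windows. The composite was in 0 of the 7 windows and in 2.72% of all windows, and TGANTCA was in 0 of the 7 and in 7.81%. No match says only that these letters are not in the window.

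The depth of the samples was estimated from the steps of low values at 7201285 to 9395769 fragments. The sum of all values ranged from 215640 to 240447 FPKM (fragments per kilobase of exon, scaled to all mapped fragments), and none of the 15 sample pairs held identical values. Samples differed in how their values followed the GC content of genes, in both groups. Genes were ranked by GC content, and in the top decile (median GC 58.5%) CON replicate 1 lay at a median of -0.56 (log2) from each gene's mean and CON replicate 2 at 0.49. The value was -0.30 in PND replicate 2 and 0.37 in PND replicate 3. The values of single markers are set beside this below.

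Per length of exon, P2ry12 had the highest mean of the markers over the 6 samples (7.38 FPKM). It was the highest in all CON samples and in PND replicate 2, while in PND replicates 1 and 3 it lay below Csf1r and Sall1. Csf1r (5.32 FPKM), Sall1 (5.15 FPKM), P2ry13 (4.20 FPKM), Cx3cr1 (3.78 FPKM) and Gpr34 (2.99 FPKM) followed. Tmem119 (1.22 FPKM), Siglech (0.682 FPKM) and Selplg (0.643 FPKM) were lowest. Between neighbours in this order the sample values overlapped within CON, with the exception of Gpr34 and Tmem119, whose CON samples lay between 3.04 and 3.61 FPKM and between 0.259 and 1.76 FPKM. Within PND the neighbours without overlap were Sall1 and P2ry13, Cx3cr1 and Gpr34, Gpr34 and Tmem119, and Tmem119 and Siglech. P2ry12 and Csf1r, well apart in their CON means (9.27 and 5.62 FPKM), had PND means of 5.49 and 5.02 FPKM.

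**Figure D1:**
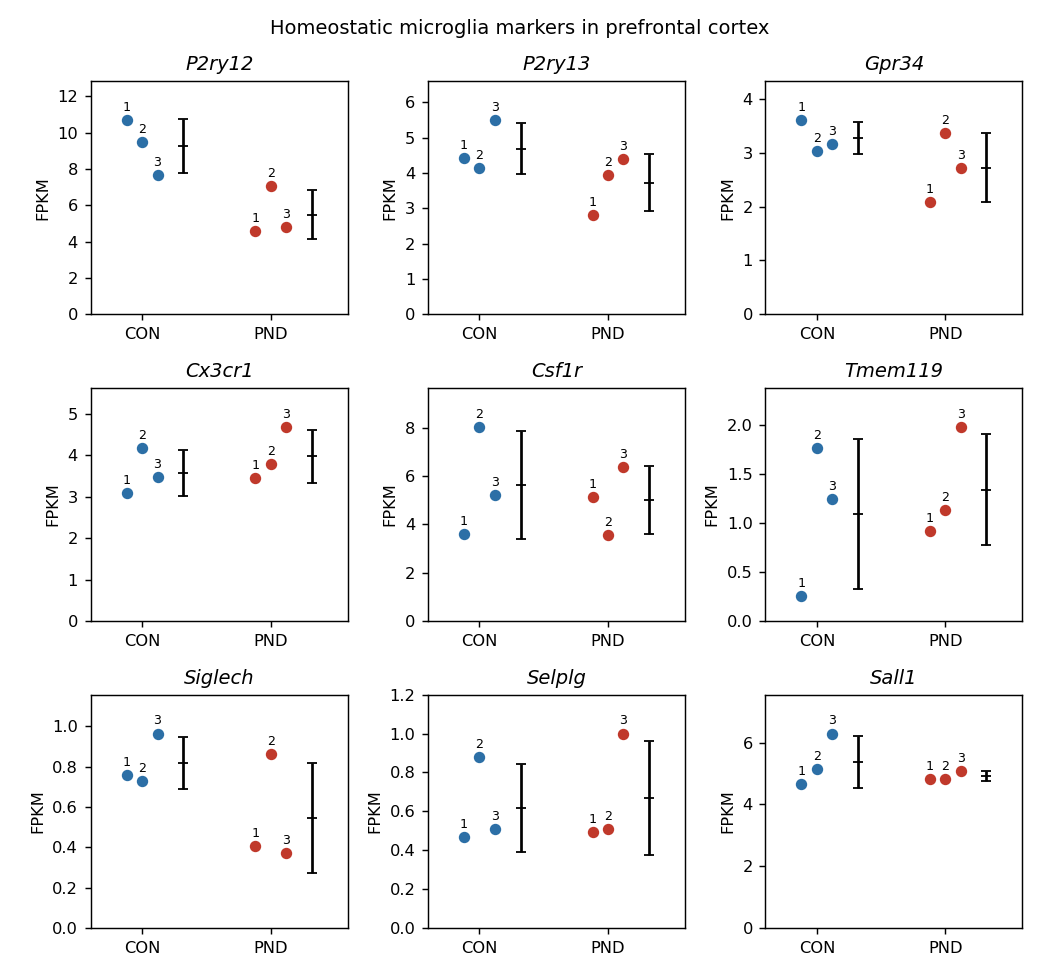
Level of each marker in FPKM (y axis, from 0, a scale of its own per gene) in the 3 CON and the 3 PND samples. Points are samples with their replicate number, and bars are the mean ± SD of the group (n = 3). The PND points of P2ry12 all lie below its CON points, and in the other 8 genes the groups overlap.

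PND was compared with CON to ask whether the homeostatic markers differed after anesthesia and surgery. The test was limma on log2(FPKM + 0.1) over the 18185 genes averaging 0.1 FPKM or more. Fold changes below are on this scale, which understates the change of low genes. P2ry12 had 4.61, 7.06 and 4.79 FPKM in PND replicates 1 to 3 and 10.7, 9.47 and 7.68 FPKM in CON replicates 1 to 3. All PND samples lay below all CON samples, and the nearest were PND replicate 2 and CON replicate 3. The mean ± SD was 5.49 ± 1.36 FPKM for PND against 9.27 ± 1.50 FPKM for CON (n = 3). The log2 fold change was -0.76 (SE 0.21, 95% interval -1.25 to -0.27), a PND level of 0.59 times the CON level with an interval of 0.42 to 0.829. The unadjusted limma p was 0.00767. The limma p adjusted by Benjamini-Hochberg over all genes was 0.9999, so the difference did not pass that correction. Over all genes 106 had an unadjusted p at or below that of P2ry12, and 48 of these were lower in PND.

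P2ry12 was 1 of the 9 markers with an unadjusted p below 0.05. Over all genes tested this share was 3.13% (1.40% lower and 1.73% higher in PND). None (0 of 9) passed the cut-off of the study, applied here to the limma values. It asks for an absolute log2 fold change above 1 with an unadjusted p below 0.05, and 1.33% of all genes passed it (0.484% lower in PND). None (0 of 9) had an adjusted p below 0.05 in limma, against 0.0110% of all genes, and the adjusted p was 0.9999 for each marker. The groups did not overlap in 1 of the 9 markers, again P2ry12. Over all genes they did not overlap with PND lower in 3.88% and with PND higher in 3.78%. A negative log2 fold change was found for 6 of the 9 markers and for 47.6% of all genes. The median log2 fold change was -0.127 over the 9 markers and 0.012 over all genes tested. The RNA came from whole tissue, so fewer microglia and less RNA per microglial cell cannot be told apart.

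**Figure D2:**
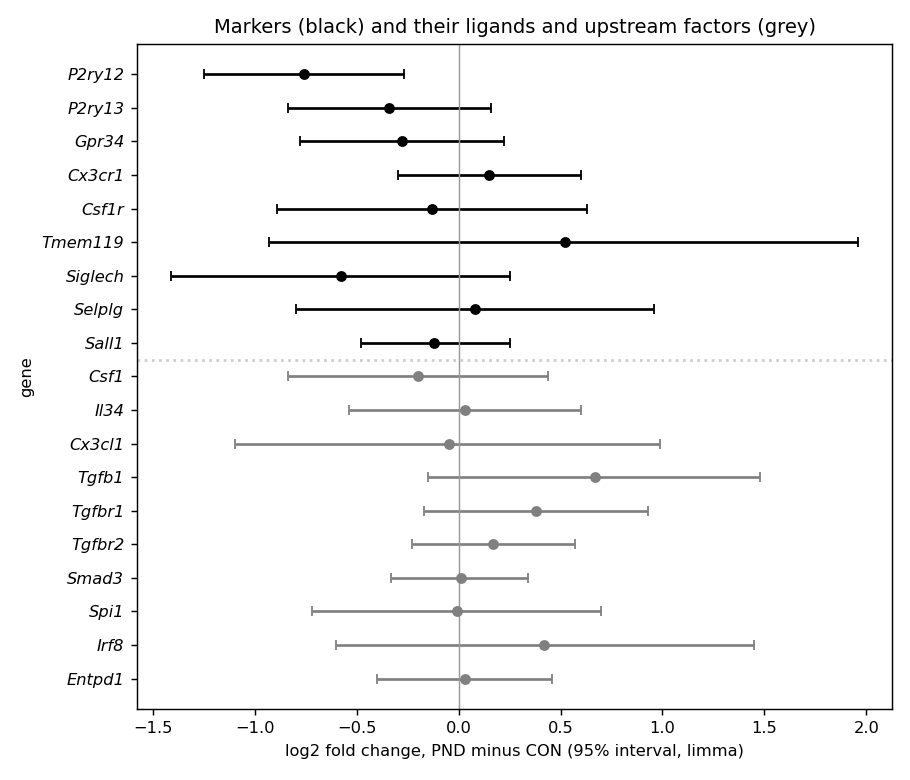
Log2 fold change of PND minus CON (x axis) with its 95% interval from limma for the 9 markers (black) and 10 genes for their ligands and upstream factors (grey). The interval of P2ry12, -1.25 to -0.27, lies below 0, and all other intervals include 0.

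The estimated number of fragments gives the precision of these values. P2ry12 held about 104 to 142 fragments in a PND sample (103.8, 142.2 and 114.6) and 203.4, 196.4 and 140.8 in the CON samples. Counting error alone was 8.16% per sample for this gene, and the mean coefficient of variation within groups was 20.5%. PND replicate 2 and CON replicate 3 held nearly the same number of fragments and differed in FPKM through the scaling by depth. The difference of P2ry12 kept its direction and an unadjusted p below 0.05 in all 17 alternative fits. With all samples its log2 fold change lay between -0.78 and -0.67 with an unadjusted limma p of 0.00458 to 0.0167. When a sample was left out it lay between -0.95 and -0.65 with an unadjusted limma p of 0.00195 to 0.0322. The smallest adjusted p over these fits was 0.831.

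**Figure D3:**
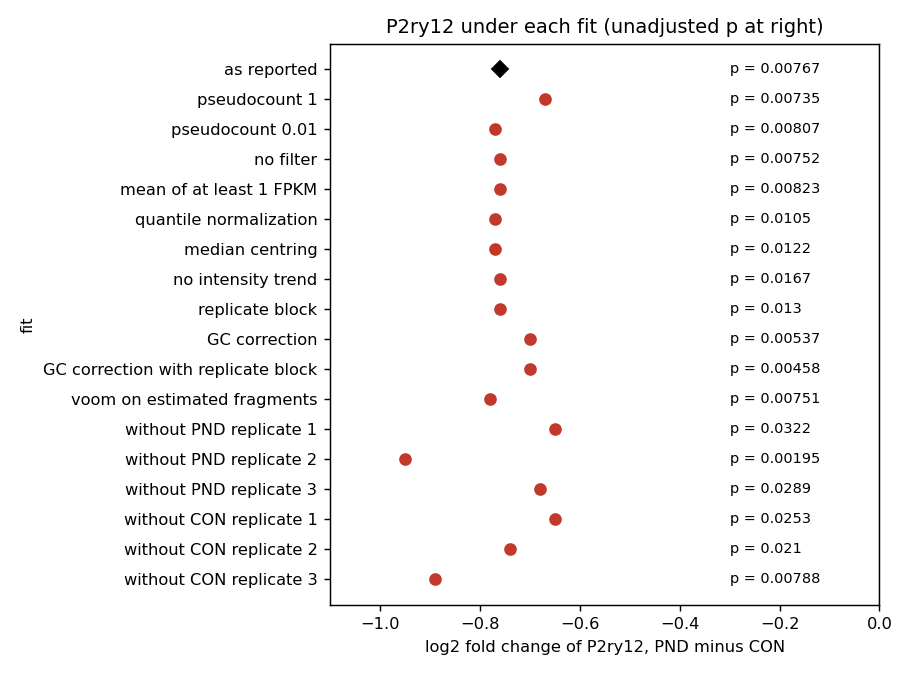
Log2 fold change of P2ry12, PND minus CON (x axis), in the reported fit (diamond) and in 17 alternative fits (points), with the unadjusted limma p of each fit printed at the right. All values lie below 0, from -0.95 without PND replicate 2 to -0.65 without PND replicate 1 or without CON replicate 1.

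Because the use of strand in counting was not stated, reads of the host gene could enter the level of P2ry12. Med12l shares 9 bases of exon with P2ry12 in GENCODE M21 (0.353% of its exon length) and 0 with P2ry13. These numbers cover exons only. Both genes lie inside the span of Med12l, and reads from its introns were not examined. Med12l had 8.10, 8.27 and 8.14 FPKM in PND and 6.07, 5.37 and 6.34 FPKM in CON. All its PND samples lay above all its CON samples, so it moved the other way from P2ry12. The difference was 0.46 on the log2 scale (SE 0.13), at an unadjusted limma p of 0.00783 and an adjusted p of 0.9999. Med12l was examined after its values were seen, and its part in the level of P2ry12 was not tested.

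**Figure D4:**
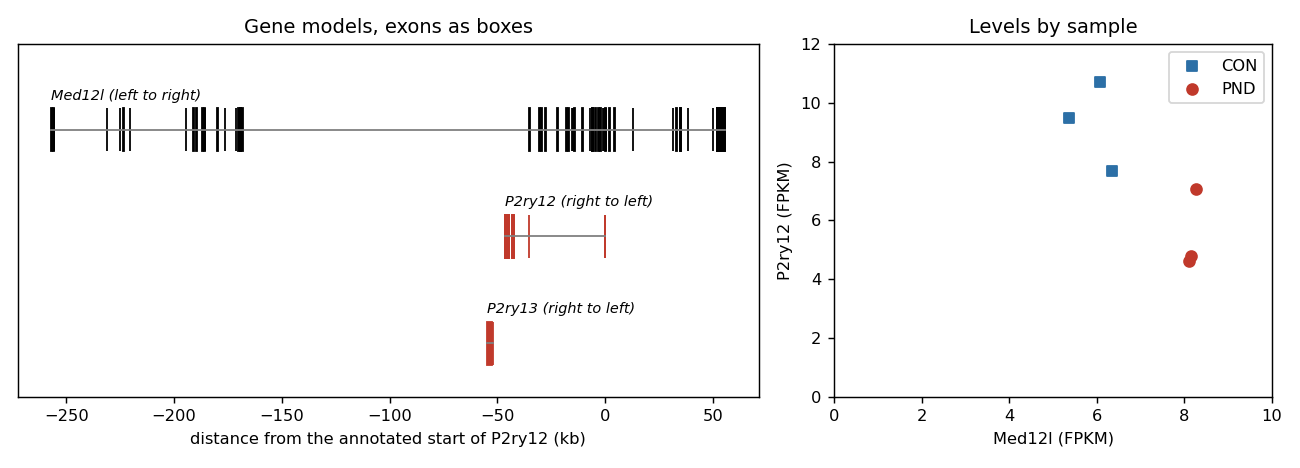
Left, gene models of Med12l, P2ry12 and P2ry13 by distance from the GENCODE start of P2ry12 in kb, with exons as boxes and the direction of transcription in brackets. Right, the level of P2ry12 against that of Med12l in FPKM for each sample. The PND samples (circles) lie between 8.10 and 8.27 FPKM of Med12l, above the CON samples (squares), and below them for P2ry12.

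The neighbouring ADP receptor P2ry13 had 2.82, 3.95 and 4.38 FPKM in PND and 4.43, 4.13 and 5.50 FPKM in CON. PND replicate 1 was the lowest sample, and PND replicate 3 lay within the CON values. P2ry13 had a log2 fold change of -0.34 (SE 0.21, 95% interval -0.84 to 0.16), at an unadjusted limma p of 0.152. Without PND replicate 1 it was -0.16 (unadjusted limma p 0.471), and without CON replicate 3 it was -0.22. The interval includes both 0 and the change of P2ry12. Gpr34, of the same receptor family, lies on chromosome X (13632089 to 13640858) within the span of Cask, which is on the opposite strand. It had 2.08, 3.36 and 2.72 FPKM in PND and 3.61, 3.04 and 3.16 FPKM in CON. PND replicate 2 was above 2 of the 3 CON samples, and the log2 fold change was -0.28 (SE 0.21, unadjusted limma p 0.229). It was -0.11 (unadjusted limma p 0.634) without PND replicate 1 and -0.44 (unadjusted limma p 0.0857) without PND replicate 2. Cask had a log2 fold change of -0.02 (SE 0.12).

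P2ry12 was also set against the other markers by its ratio to each of the 8, a comparison chosen after its values were seen. The ratio to Cx3cr1 was 1.34, 1.86 and 1.02 in PND and 3.46, 2.27 and 2.21 in CON. The ratio to Gpr34 was 2.22, 2.10 and 1.76 in PND and 2.95, 3.12 and 2.43 in CON. These 2 of the 8 ratios were lower in all PND samples. The two-sided exact permutation test used cannot go below p = 0.1 with 3 against 3 samples, the value it gave for both (0.4 after Benjamini-Hochberg adjustment over the 8 ratios), so it says nothing on whether they differed. The ratio to P2ry13 was 1.64, 1.79 and 1.09 in PND and 2.40, 2.30 and 1.40 in CON and overlapped. The ratio to Siglech was 11.3, 8.19 and 13 in PND and 14, 13 and 7.96 in CON and overlapped widely. All 8 ratios were lower in PND on average, with log2 differences from -1.39 (Tmem119) to -0.09 (Siglech). Those in between were -0.93 for Cx3cr1, -0.86 for Selplg, -0.65 for Sall1, -0.64 for Csf1r, -0.48 for Gpr34 and -0.42 for P2ry13. All 8 share the values of P2ry12, which had the most negative log2 fold change of the markers. Their shared direction follows from that choice, and the ratios are given as a description.

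Cx3cr1 (chromosome 9, 119901616 to 120069879) had 3.45, 3.80 and 4.69 FPKM in PND and 3.08, 4.17 and 3.47 FPKM in CON. The groups overlapped, with the highest value in PND replicate 3 and the lowest in CON replicate 1. For Cx3cr1 the log2 fold change was 0.15 (SE 0.19, 95% interval -0.30 to 0.60, unadjusted limma p 0.456). The interval overlaps that of P2ry12. Without PND replicate 3 the value was 0.03, and without CON replicate 1 it was 0.05.

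Csf1r (chromosome 18, 61100598 to 61132149) had 5.13, 3.56 and 6.36 FPKM in PND and 3.62, 8.04 and 5.22 FPKM in CON. The low samples were 1 of each group, PND replicate 2 and CON replicate 1, and so were the high ones, CON replicate 2 and PND replicate 3. For Csf1r the log2 fold change was -0.13 (SE 0.32, 95% interval -0.89 to 0.63, unadjusted limma p 0.706). Its direction turned without PND replicate 2 (0.10) and without CON replicate 2 (0.16). Of its exon length, 15.1% is shared with Hmgxb3 on the opposite strand, whose log2 fold change was 0.03 (SE 0.22).

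Tmem119 (chromosome 5, 113793729 to 113800516) had 0.921, 1.13 and 1.98 FPKM in PND and 0.259, 1.76 and 1.24 FPKM in CON. CON replicate 1 stood apart with about 4.5 fragments, against 18.9 to 43.1 in the other samples. The log2 fold change was 0.52 (SE 0.62, 95% interval -0.93 to 1.96, unadjusted limma p 0.431). Without CON replicate 1 it was -0.20 (unadjusted limma p 0.608), so its direction rested on this sample. The gene 18.0 kb away, Selplg (chromosome 5, 113818536 to 113832644), had 0.493, 0.508 and 1 FPKM in PND and 0.466, 0.878 and 0.510 FPKM in CON. Again PND replicate 3 and CON replicate 2 were the high samples. Selplg had a log2 fold change of 0.08 (SE 0.38, 95% interval -0.80 to 0.96, unadjusted limma p 0.838). Its direction turned in 3 of the 6 fits with a sample left out, to -0.21 without PND replicate 3, -0.07 without CON replicate 1 and -0.02 without CON replicate 3.

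The lowest sample of Tmem119 (CON replicate 1), the 2 lowest of Csf1r (PND replicate 2 and CON replicate 1) and the 2 highest of both genes were also the extremes of the GC dependence. The GC content of the longest transcript was 59.0% for Tmem119 and 54.5% for Csf1r, the highest of the 9 markers, and 37.1% for Gpr34 and 38.6% for P2ry12, the lowest. When the dependence on GC content was taken out of each sample, the SD within groups went from 0.50 to 0.22 (log2) for Csf1r and from 0.97 to 0.62 for Tmem119. For Sall1, Siglech and P2ry13 it rose by 0.02 or 0.01, and for P2ry12 it went from 0.29 to 0.25. The corrected log2 fold change was -0.20 (SE 0.17) for Csf1r and 0.42 (SE 0.41) for Tmem119, with unadjusted limma p-values of 0.28 and 0.346. For P2ry12 it was -0.70 (SE 0.18) with an unadjusted limma p of 0.00537 and an adjusted p of 0.891, so its difference was nearly as large after the correction.

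**Figure D5:**
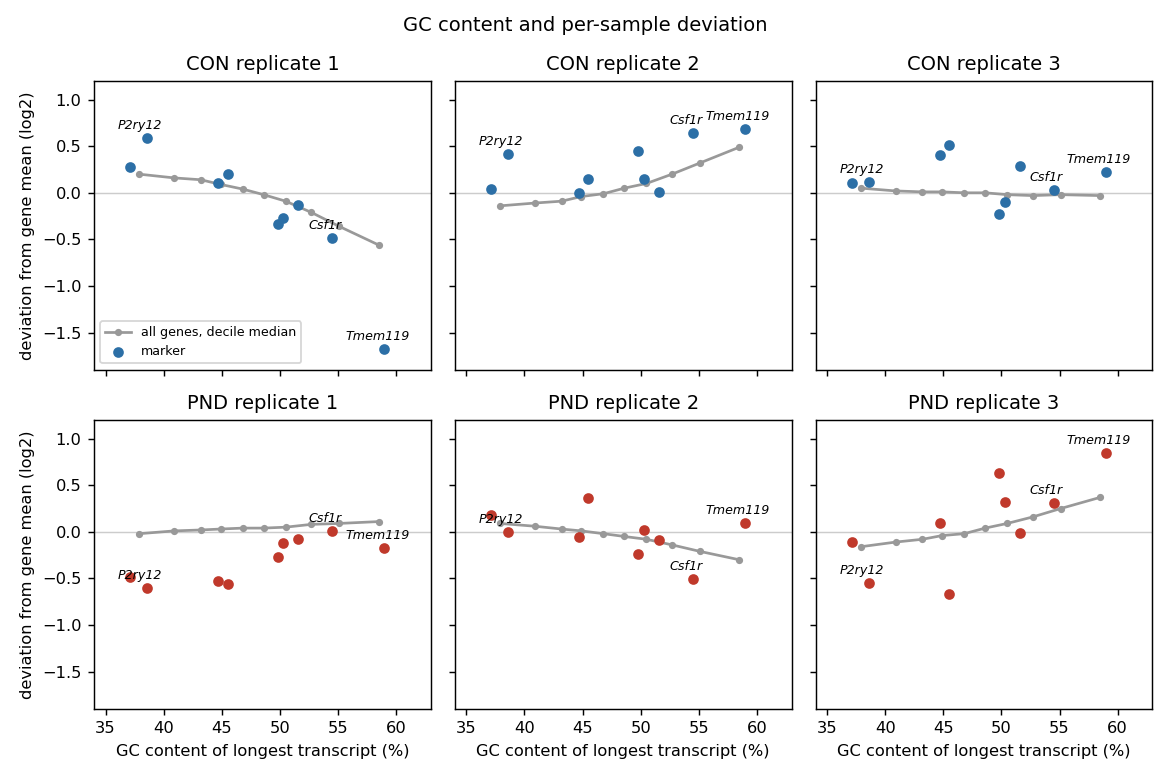
Deviation from the gene mean on the log2 scale (y axis) against GC content of the longest transcript in percent (x axis) in each sample. Grey points joined by lines are the medians of all genes with at least 1 FPKM by GC decile, and coloured points are the 9 markers. In CON replicate 1 the grey line falls to -0.56 and Tmem119 to -1.68, in CON replicate 2 they stand at 0.49 and 0.69, and P2ry12 is above the grey line in all 3 CON samples and below it in all 3 PND samples.

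Siglech (chromosome 7, 55768178 to 55778925) had 0.406, 0.862 and 0.370 FPKM in PND and 0.761, 0.730 and 0.965 FPKM in CON. PND replicates 1 and 3 lay below all CON samples, and PND replicate 2 lay among them. At this level a sample held about 12 to 24 fragments (11.7 to 23.5), and the counting error alone was 23.4%. The log2 fold change was -0.58 (SE 0.35, 95% interval -1.41 to 0.25, unadjusted limma p 0.145). Leaving out a sample gave values from -0.90 without PND replicate 2 (unadjusted limma p 0.0273, adjusted p 0.9984) to -0.39 without PND replicate 3 (unadjusted limma p 0.36), and a pseudocount of 1 gave -0.25. SIGLEC-H signals through the adaptor encoded by Tyrobp. Tyrobp, named here after its values were seen, had 1, 1.79 and 2.46 FPKM in PND and 2.37, 3.92 and 2.71 FPKM in CON, with PND replicate 3 above CON replicate 1. Tyrobp had a log2 fold change of -0.79 (SE 0.35, 95% interval -1.60 to 0.01), at an unadjusted limma p of 0.0533. With a sample left out it ranged from -1.07 without PND replicate 3 (unadjusted limma p 0.0188) to -0.46 without PND replicate 1 (unadjusted limma p 0.166). It was picked from the list of 20 other microglia and myeloid genes, of which 9 had a positive and 11 a negative log2 fold change.

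Sall1 (chromosome 8, 89027235 to 89044162) varied least. It had 4.84, 4.82 and 5.09 FPKM in PND and 4.67, 5.16 and 6.30 FPKM in CON. The PND values lay within the CON values, and CON replicate 3 was the highest. The log2 fold change was -0.12 (SE 0.16, 95% interval -0.48 to 0.25, unadjusted limma p 0.479), or 0.00 without CON replicate 3, and the mean coefficient of variation within groups was 9.29%.

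The 9 markers together summed to 24.7, 29 and 31.4 FPKM in PND replicates 1 to 3 and to 31.6, 37.4 and 34 FPKM in CON replicates 1 to 3. The group values did not overlap, by a margin of less than the spread within groups (SD 3.37 in PND and 2.92 in CON). Without P2ry12 the other 8 summed to 20.1, 22 and 26.6 FPKM in PND and 20.9, 27.9 and 26.4 FPKM in CON, which overlapped. Each marker was also set against the mean profile of the other 8. Sall1 and Cx3cr1 were nearest to it, with root mean square differences of 0.189 and 0.195 (log2) over the 6 samples. Tmem119 (0.796), P2ry12 (0.488) and Siglech (0.483) were farthest from it.

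Among 12316 other genes with at least 1 FPKM, those whose profile over the 6 samples was most like the mean of the 9 markers were Prpf31, Wdr92, Srrt, Adrb1 and Gm42608. Their root mean square differences from it were 0.048 to 0.070 (log2). Prpf31 had 1.43, 1.64 and 1.88 FPKM in PND and 1.46, 2.15 and 1.81 FPKM in CON. With 6 samples and this many genes, near matches say little about a gene.

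Of the 10 genes for ligands and upstream factors, 0 had an unadjusted p below 0.05 in limma, and 7 had a positive and 3 a negative log2 fold change. Among the ligands, Csf1 (log2 fold change -0.20, SE 0.27) and Il34 (0.03, SE 0.24) bind the receptor encoded by Csf1r. Cx3cl1, which encodes fractalkine, had 17.6, 12.2 and 28.3 FPKM in PND and 10.2, 32 and 20.8 FPKM in CON, and the fold change was -0.05 (log2, SE 0.45). TGF-beta maintains the homeostatic state. Tgfb1 had 0.832, 0.487 and 0.560 FPKM in PND and 0.234, 0.451 and 0.390 FPKM in CON. Its PND samples all lay above its CON samples, the nearest at 0.487 and 0.451 FPKM. The fitted difference of the groups was 0.67 on the log2 scale (SE 0.35, unadjusted limma p 0.0938). Its receptors Tgfbr1 (0.38, SE 0.24) and Tgfbr2 (0.17, SE 0.17) and the signal transducer Smad3 (0.01, SE 0.14) had the log2 fold changes given in brackets, and that of Tgfbr1 was 0.64 (unadjusted limma p 0.00445, adjusted p 0.83) without CON replicate 1. Those of the transcription factor genes Spi1 and Irf8 were -0.01 (SE 0.30) and 0.42 (SE 0.44). Entpd1, which encodes the ectonucleotidase that breaks down ATP and ADP outside the cell, had 0.03 (SE 0.18).

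Of 20 other microglia and myeloid genes, all 20 were tested and 0 had an unadjusted p below 0.05 in limma. Their median log2 fold change was -0.02, and their sum was 109 to 120 FPKM in PND and 108 to 122 FPKM in CON. Of 15 disease-associated microglia genes, which are raised in microglia around plaques, 13 were tested with a median log2 fold change of 0.07. Of these 1 had an unadjusted p below 0.05, Ctsb, which encodes the lysosomal protease cathepsin B. Ctsb had 51.9 ± 5.42 FPKM in PND against 40.6 ± 6.61 FPKM in CON (SD, n = 3), with overlap. This was a log2 fold change of 0.36 (SE 0.14), at an unadjusted limma p of 0.0391 and an adjusted p of 0.9999. The unadjusted p was not below 0.05 without the intensity trend, with the replicate block, or without PND replicate 1, PND replicate 3, CON replicate 1 or CON replicate 3. Of 10 cytokine and chemokine genes, 4 were tested with a median log2 fold change of 0.12, and 0 had an unadjusted p below 0.05 in limma. Il1b, Il6, Tnf, Ccl2 and Cxcl10 had means under 0.1 FPKM, and their highest single value was 0.112 FPKM (Ccl2 in PND replicate 3).

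Markers of other cells were examined in the same way. Of 8 border macrophage markers, 4 were tested and 0 had an unadjusted p below 0.05 in limma. All 4 had a positive log2 fold change, with a median of 0.56, and the list summed to 2.56 to 3.20 FPKM in PND and 2.11 to 2.14 FPKM in CON. The smallest p was that of F13a1, at low levels of 0.703 ± 0.167 FPKM in PND against 0.391 ± 0.0784 FPKM in CON (SD, n = 3), without overlap. Its log2 fold change was 0.70 (SE 0.31, unadjusted limma p 0.0573, adjusted p 0.9999). Of 8 monocyte and neutrophil markers, 3 were in the files and 1 was tested, Lyz2, with a log2 fold change of -0.15 (SE 0.26). Ccr2 and S100a8 had means under 0.1 FPKM, with S100a8 at 0.23 FPKM in PND replicate 1 and at 0 in the other samples. In the 6 astrocyte markers 1 had an unadjusted p below 0.05, the water channel gene Aqp4. Aqp4 had 24 ± 2.14 FPKM in PND against 30.8 ± 3.85 FPKM in CON (SD, n = 3), without overlap. This was a log2 fold change of -0.36 (SE 0.13), at an unadjusted limma p of 0.0275 and an adjusted p of 0.9999. The unadjusted p was not below 0.05 without the intensity trend or without PND replicate 2, CON replicate 1 or CON replicate 3. Of the 6 oligodendrocyte, 6 endothelial and 8 neuron markers 0 had an unadjusted p below 0.05 in limma, and their median log2 fold changes were -0.16, 0.12 and 0.02. The part of these cells in the level of the markers was not tested.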

How the data were processed

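Prefrontal cortex RNA of 3 PND and 3 CON mice was analysed, grouped by the treatment label. The authors removed ribosomal RNA, filtered reads with Seqtk, aligned them with HISAT2, counted fragments with StringTie, scaled them by TMM and deposited FPKM, 1 column per animal. The submitters' processing notes also list Bowtie 0.12.2 and the builds mm8 and mm9 with no role. The build, annotation and strand setting of these files are not given in the sources used here. Symbols were matched by Ensembl identifier (20866 of 21006). GENCODE M21 (GRCm38) gave positions, exon lengths and GC content.

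Where values of FPKM times exon length moved in steps, the step was taken as 1 fragment; 41.1% to 44.7% of low values lay within 0.05 of a whole number, so fragment numbers are estimates. Precision is limited by counting and by 3 animals per group. The groups were compared on log2(FPKM + 0.1) by limma 3.58.1 (R 4.3.3; lmFit, then eBayes with a trend on mean level), with no covariate, a mean of at least 0.1 FPKM and Benjamini-Hochberg adjustment. The fit was also run on simulated data, with larger changes than that of P2ry12 and no dependence on GC content. That run does not bear on the difference of P2ry12. Genes named were the 9 markers, the genes of the list of ligands and upstream factors, genes of other lists with an unadjusted p below 0.05 and the 5 nearest profiles. Outside this rule, and chosen after their values were seen, are the genes overlapping a marker (Med12l, Cask, Hmgxb3), Tyrobp, F13a1, C1qa, Cd9, B2m, Slc1a2, Lyz2 and the list genes named as under 0.1 FPKM. The markers and lists were chosen with earlier results of these data known. Alternatives changed the pseudocount, filter, normalization, trend, replicate block, GC correction (a spline with 5 degrees of freedom) and samples, or used voom on estimated fragments. The main test was not one on counts because the values are FPKM.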

Additional observations from a re-analysis of the deposited data

How the results depend on the processing

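The number of markers past the cut-off was 0 in all 17 alternative fits. The number with an unadjusted p below 0.05 was 1 in each fit with all samples and 1 to 2 when a sample was left out, the second being Siglech without PND replicate 2. The median log2 fold change of the markers lay between -0.20 and -0.11 with all samples and between -0.29 and -0.10 with a sample left out. In the main fit of this report 241 genes passed the cut-off. That is not the count of the authors, who took p-values from edgeR and fold changes from FPKM. Here and below, as reported means in this main fit. The number was 25 when 1 was the pseudocount, 59 among genes averaging 1 FPKM or more, 226 with the replicate block, and 235 to 388 with a sample left out (388 without CON replicate 2). Directions reversed for Csf1r without PND replicate 2 (0.10) and without CON replicate 2 (0.16; range -0.40 to 0.16), for Tmem119 without CON replicate 1 (-0.20; range -0.20 to 0.99), for Selplg without PND replicate 3 (-0.21), CON replicate 1 (-0.07) and CON replicate 3 (-0.02; range -0.21 to 0.32), and for Sall1 without CON replicate 3 (0.00; range -0.21 to 0.00), none with an unadjusted p below 0.05. With a mean of at least 1 FPKM, Siglech and Selplg were not tested.

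The number of genes with an unadjusted p below 0.05 was 0 in every fit for the cytokine, the monocyte and neutrophil, and the neuron lists. In the other lists it moved by 1 or 2 genes. For ligands and upstream factors, 0 as reported, it was 1 (Tgfbr1) with the block and GC correction together, and 0 to 1 with a sample left out. For other myeloid genes, 0 as reported, it was 1 (Tyrobp) with quantile normalization, median centring, the replicate block, GC correction and both together, and 0 to 1 with a sample left out (Tyrobp, or C1qa without CON replicate 2). For disease-associated genes, 1 as reported (Ctsb), it was 0 without the trend and with the replicate block, and 0 to 2 with a sample left out. The 2, without CON replicate 1, were Cd9 and B2m and not Ctsb. For border macrophages, 0 as reported, it was 1 (F13a1) with a pseudocount of 1, median centring, no trend, GC correction and voom, and 0 to 1 with a sample left out. For astrocytes, 1 as reported (Aqp4), it was 0 without the trend and 0 to 1 with a sample left out, where the gene without CON replicate 1 was Slc1a2 and not Aqp4. For oligodendrocytes, 0 as reported, it was 1 with quantile normalization, median centring, GC correction and GC correction with the block, and 0 to 2 with a sample left out. For endothelial genes, 0 as reported, it was 1 without the trend, 2 after GC correction, 1 after GC correction plus the block, and 0 to 1 with a sample left out. The cause of these moves was not tested. The sample labels give no link between same-numbered samples other than the number. Across genes, the deviations of same-numbered samples correlated at -0.049, -0.453 and 0.028, against a mean of 0.079 for different numbers. The value of -0.453 was that of replicate 2. Its PND and CON samples lay at -0.30 and 0.49 in the top GC decile. Whether the numbers mark a pair or batch, and the part of GC content in these correlations, was not tested. The block left P2ry12 at -0.76 (unadjusted limma p 0.013).

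Siglech, Selplg and Tmem119 had few fragments, with a counting error of 20.6% to 23.4% at their mean number of fragments. Their mean coefficients of variation within groups were larger, at 32.9%, 40.1% and 56%. The part of depth in this spread was not tested.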
